A study of Mus musculus with 91 samples.

Results

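The extraembryonic ectoderm (Exe) and the epiblast (Epi) of control mouse embryos at E6.5 were compared in their mature miRNAs. The comparison used all 8 E6.5 control tissue samples, 4 of Exe and 4 of Epi, of the 91 small RNA samples in the series, and the 365 miRNAs, of 1504 in the count table, that passed a filter on low counts. The other samples are later embryos, *Dnmt* mutants, semi-cloned embryos and cell lines. All embryos used here had a C57BL/6 father and an F1 mother (B6D2F1 in the methods), and according to the methods they carried an *Oct4-EGFP* transgene from the father. Whether the control zygotes were injected is not given in the sources used here. The methods describe Exe and Epi as parted by hand with a needle. How many embryos entered a sample is not given in the sources used here, so p-values measure the spread between these samples, which may be technical in part. The E7.5 control embryos (4 Exe and 3 Epi samples) and the E6.5 mutants (4 samples per tissue and genotype, namely *Dnmt*-null, called TKO in the labels, *Dnmt1*-KO, and *Dnmt3a/3b*-DKO) are used only to set the same tissue difference beside that of the controls. The small RNAs were sequenced with CAS-seq, a method for very small amounts of RNA in which Cas9 cuts unwanted adapter products out of the library, and the values are read counts per mature miRNA.

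A miRNA is a short RNA that guides Argonaute proteins to messenger RNAs, mostly through the bases 2 to 8 from its 5′ end, the seed, and lowers their output. Many miRNAs are cut from long transcripts that hold several of them in a row (a cluster), and miRNAs with the same seed can share targets wherever they are encoded. The Epi gives rise to the embryo proper, whereas the Exe is a trophoblast tissue that contributes to the placenta. The miR-290-295 cluster is typical of embryonic stem cells and early trophoblast, the miR-302/miR-367 cluster of primed pluripotent cells, and the miRNAs in an intron of *Sfmbt2*, an imprinted gene expressed from the paternal allele, of trophoblast and placenta.

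The sequences that carry the comparison are given first, from RefSeq on GRCm38.p6, with the seed in capitals. The first set shares the seed AAGUGCU although it comes from the miR-302/miR-367 cluster on chromosome 3 (miR-302b-3p at chr3:127545275-127545297, plus strand) and the miR-290-295 cluster on chromosome 7 (miR-295-3p at chr7:3220815-3220837, plus strand). It is shown because miR-302b-3p was called higher in Epi and miR-295-3p higher in Exe. The call of miR-295-3p was kept in only 2 of 21 other settings, and miR-294-3p and miR-291a-3p were not called.
miR-302b-3p: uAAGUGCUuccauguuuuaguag
miR-302d-3p: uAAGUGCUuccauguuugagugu
miR-295-3p: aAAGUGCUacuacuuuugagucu
miR-294-3p: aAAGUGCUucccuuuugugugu
miR-291a-3p: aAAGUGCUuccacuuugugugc

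A second set shares the seed AAAGUGC and comes from 3 related clusters, miR-106a-363 on the X chromosome (miR-106a-5p at chrX:52742541-52742563, minus strand), miR-17-92 on chromosome 14 (miR-17-5p at chr14:115043684-115043706, plus strand) and miR-106b-25 on chromosome 5 (miR-93-5p at chr5:138165574-138165596, minus strand). These members were lower in Exe by different amounts.
miR-106a-5p: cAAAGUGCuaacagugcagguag
miR-20b-5p: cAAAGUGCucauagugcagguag
miR-17-5p: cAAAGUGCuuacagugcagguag
miR-20a-5p: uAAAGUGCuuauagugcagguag
miR-93-5p: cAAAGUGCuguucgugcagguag

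The seed AUUGCAC joins members of the same 3 clusters and of miR-302/miR-367, some of which differed between the tissues and some of which did not.
miR-363-3p: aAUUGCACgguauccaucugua
miR-367-3p: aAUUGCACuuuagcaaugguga
miR-92a-3p: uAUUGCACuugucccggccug
miR-25-3p: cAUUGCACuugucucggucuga
The last set holds miRNAs that were higher in Exe, with miR-125a-5p beside miR-351-5p because they share the seed CCCUGAG. They lie at chr4:63256904-63256924 (miR-455-3p, plus strand), chrX:53053315-53053338 (miR-351-5p, minus strand), chrX:53054269-53054289 (miR-322-3p, minus strand) and chr7:142654968-142654989 (miR-483-5p, minus strand).
miR-351-5p: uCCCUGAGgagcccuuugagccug
miR-125a-5p: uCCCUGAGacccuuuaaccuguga
miR-322-3p: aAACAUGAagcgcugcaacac
miR-455-3p: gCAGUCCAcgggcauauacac
miR-483-5p: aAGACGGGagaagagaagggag
miR-483-3p: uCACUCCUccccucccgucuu

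The samples differ in ways that bear on every value. Total counts were 65751, 139014, 202093 and 156426 in Exe replicates 1 to 4 and 286288, 281158, 447629 and 458837 in Epi replicates 1 to 4, so every Exe sample was shallower than every Epi sample, and depth cannot be told apart from tissue. A count of 3, used here as the floor of detection, corresponds to 45.6 CPM (the count scaled to the total of the sample) in the shallowest Exe sample and 6.54 CPM in the deepest Epi sample, and floors cover the counting error only, since the reads were amplified by PCR and no molecular identifiers are described. The correlation of log2 CPM over miRNAs was 0.934 to 0.985 within Epi, 0.810 to 0.950 within Exe and 0.670 to 0.905 across the tissues. Epi replicates 1 and 2 stood nearer to Exe than Epi replicates 3 and 4: the 65 miRNAs called higher in Exe took 18.5% and 22.2% of the counts of Epi replicates 1 and 2, 12.5% and 12.4% of those of replicates 3 and 4, and 36.3% to 42.3% in Exe. Of these 65, 45 were higher in both Epi replicates 1 and 2 than in both replicates 3 and 4, and 0 were lower. Of the 44 called higher in Epi, 5 were higher and 25 lower in this way. Both sets were called with these same Epi samples, and the count over all miRNAs tested is not given here. Whether Exe cells entered Epi replicates 1 and 2 was not tested, and results that rest on these samples are also given without them. In samples of whole tissue, fewer cells of a type and less RNA per cell cannot be told apart.

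The table also holds entries with the same counts in every sample compared. Of the 365 miRNAs tested, 54 share all 8 counts with another and 336 distinct profiles remain. They include near-identical copies such as miR-466a-3p and miR-466e-3p, and pairs named on opposite strands of 1 locus such as miR-290a-5p and miR-290b-3p. Their reads were counted for each entry, so such entries are not separate measurements, and sums over a cluster count these reads more than once. With 1 entry kept per profile, 84.7% to 95.7% of the counts of a sample remained.

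The comparison asks which miRNAs tell the Exe lineage from the Epi lineage at E6.5. A miRNA was called when the quasi-likelihood test of edgeR gave a Benjamini-Hochberg adjusted p under 0.05 over all miRNAs tested and the log2 fold change, always Exe minus Epi here, was beyond 0.5. Of 365 miRNAs, 109 (29.9%) were called, 65 (17.8%) higher in Exe and 44 (12.1%) higher in Epi. At the thresholds of the study (unadjusted p under 0.05) 144 (39.5%) passed, 83 and 61 in the 2 directions. The Exe and Epi samples did not overlap in normalized CPM, which is the count scaled to the total times the TMM factor of edgeR, for 92 of the 109, against 121 (33.2%) of all 365. The 109 entries correspond to 94 distinct count profiles. The median log2 fold change over all miRNAs tested was -0.03. This centre depends on the scaling: with TMM factors computed without the *Dlk1-Dio3* miRNAs the fold changes shifted by -0.25, and the split became 61 higher in Exe and 63 higher in Epi, so small changes should be read against such a shift. With DESeq2 72 and 68 were called and the fold changes shifted by -0.13. Without Epi replicates 1 and 2, 45 and 43 were called, and without Epi replicates 3 and 4, 18 and 24. Leaving out Epi replicate 1, 3 or 4 alone left 35, 25 and 27 miRNAs higher in Exe, and 75, 59 and 62 in all, and leaving out Exe replicate 1 or 4 gave 80 and 68 higher in Epi. In every one of the 21 other settings that tested them, 44 of the 109 were called in the same direction, 18 higher in Exe and 26 higher in Epi.

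**Figure D1:**
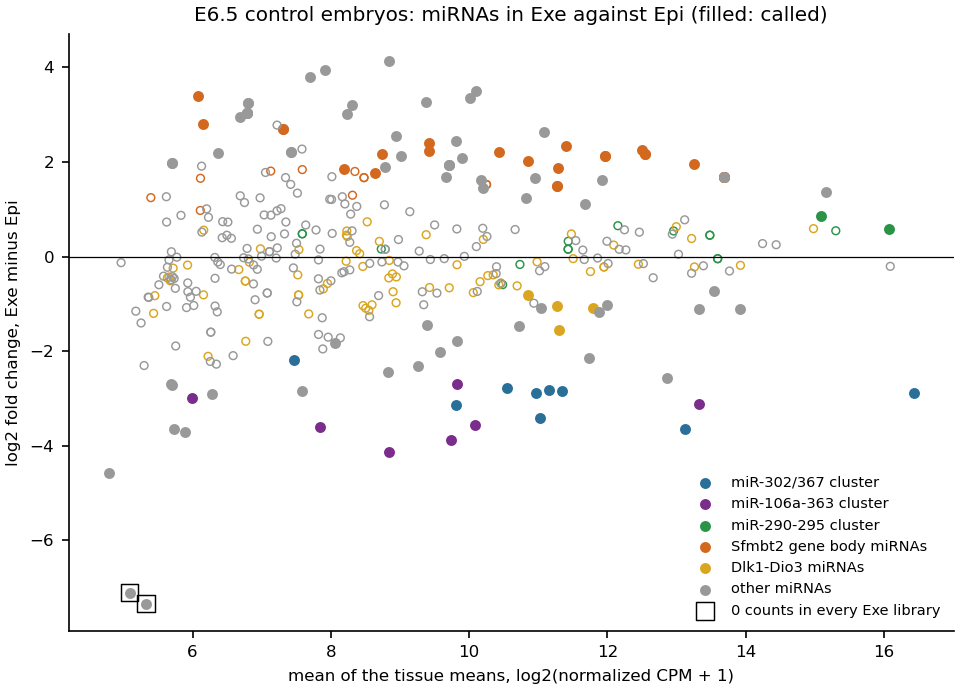
Each point is 1 of the 365 miRNAs tested, with its mean level (log2 of normalized CPM plus 1) on the x axis and its log2 fold change, Exe minus Epi, on the y axis. Filled points were called, colours mark 5 clusters, and squares mark the 2 miRNAs with 0 counts in all 4 Exe samples, whose fitted fold change is no measured size. The miR-302/miR-367 and miR-106a-363 points lie below -2, the *Sfmbt2* points above 0, and the miR-290-295 points between -0.60 and 0.85.

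The miR-302/miR-367 cluster carried the largest share of the difference. It held 19.7% ± 3.99 of all counts in Epi and 2.45% ± 0.665 in Exe (mean ± SD, n = 4 each), and all 9 members tested were called higher in Epi, with log2 fold changes from -3.64 to -2.18 and a median of -2.88, against -0.03 over all miRNAs. The most abundant miRNA in Epi was miR-302b-3p, with 147225, 130821, 162597 and 180018 normalized CPM in Epi replicates 1 to 4 and 20676, 15663, 29215 and 18325 in Exe replicates 1 to 4. Every Epi sample was far above every Exe sample (log2 fold change -2.89, SE 0.23, adjusted p = 1.42e-05). From the other arm of a neighbouring hairpin, miR-302a-5p gave 11601, 11861, 21839 and 20432 normalized CPM in Epi replicates 1 to 4 and 1048, 1172, 1819 and 1210.5 in Exe replicates 1 to 4 (log2 fold change -3.64, SE 0.31, adjusted p = 1.42e-05). Epi replicates 3 and 4 lay above replicates 1 and 2 for this miRNA, and all were above Exe. miR-302a-3p and miR-302c-3p, of the same cluster, had log2 fold changes of -3.42 and -3.15. The smallest difference was that of miR-367-3p, which unlike the miR-302 members has the seed AUUGCAC (log2 fold change -2.18, SE 0.69, adjusted p = 0.0336). Its call was made in 15 of 21 other settings and lost without Exe replicate 4, Epi replicate 3 or Epi replicate 4. The cluster was nonetheless counted in every Exe sample, at 2.31%, 1.99%, 3.43% and 2.08% of their totals. Between 8 and 9 members were called in each of the 21 other settings, those without Epi replicates 1 and 2 or 3 and 4 included.

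The miR-106a-363 cluster, an X-linked relative of miR-17-92, showed the largest fold changes at lower levels. Its 7 tested members were all called higher in Epi, with log2 fold changes from -4.14 to -2.70 and a median of -3.57, and it held 2.56% ± 0.751 of the Epi counts and 0.265% ± 0.0611 of the Exe counts. For miR-106a-5p the values were 756, 1008, 2522 and 2086 normalized CPM in Epi replicates 1 to 4 and 78.2, 47.96, 153 and 139.9 in Exe replicates 1 to 4 (log2 fold change -3.89, SE 0.54, adjusted p = 3.42e-04). Every Epi sample was above every Exe sample, and Epi replicates 3 and 4 were above replicates 1 and 2. The cluster's most abundant member, miR-363-3p, reached 14019, 15581, 23078 and 20616 normalized CPM in Epi replicates 1 to 4 and 1939, 1466, 1972 and 3072 in Exe replicates 1 to 4 (log2 fold change -3.12, SE 0.29, adjusted p = 2.24e-05). Its other arm, miR-363-5p, had 711, 1000.1, 848 and 941 normalized CPM in Epi replicates 1 to 4 and 0, 54.8, 93.9 and 28.0 in Exe replicates 1 to 4, so that it was at 0 in 1 Exe sample (log2 fold change -4.14, SE 0.63, adjusted p = 6.24e-04). miR-20b-5p (-3.57), miR-18b-3p (-3.61) and miR-92a-2-5p (-2.70) were called too. A call on miR-18b-5p (-2.99, adjusted p = 0.0348) was kept in 11 of the 20 other settings that tested it. Between 5 and 7 members were called in each of the 21 other settings.

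The related autosomal clusters differed less. Of the 10 miR-17-92 members tested 2 were called, both higher in Epi (cluster median -1.01), and of the 6 of miR-106b-25 only 1 was (median -0.28). The members called were those with the seed AAAGUGC shown above: miR-17-5p (log2 fold change -1.47), miR-20a-5p (-1.79) and miR-93-5p (-2.02), beside -3.89 and -3.57 for the X-linked miR-106a-5p and miR-20b-5p. miR-17-5p, for instance, had 1594, 2171, 3312 and 2836 normalized CPM in Epi replicates 1 to 4 and 516, 925, 974 and 1148 in Exe replicates 1 to 4. The tissues were apart but by less than for the X-linked members. miR-106b-5p, of the same family, was not called (log2 fold change -0.71, SE 0.83, adjusted p = 0.576). Without Epi replicates 3 and 4, 0 members of miR-17-92 were called by edgeR.

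Among the members with the seed AUUGCAC, the most abundant one was not called. miR-92a-3p, the second most abundant miRNA of both, had 78582, 88127, 61536 and 70825 normalized CPM in Epi replicates 1 to 4 and 85362, 51868, 51000.5 and 70712 in Exe replicates 1 to 4 (log2 fold change -0.21, SE 0.22, adjusted p = 0.522). The samples overlapped. It is encoded in both miR-17-92 and miR-106a-363, and its reads cannot be assigned to either. miR-25-3p of miR-106b-25 was not called either (log2 fold change -0.45, SE 0.27, adjusted p = 0.248), whereas miR-363-3p, miR-367-3p and miR-92b-3p (log2 fold change -1.10) were. Together the miRNAs with this seed took 10.5% ± 0.235 of the Epi counts and 7.21% ± 1.62 of the Exe counts, of which miR-363-3p made up 1.88% and 0.205% of the respective totals.

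The miR-183/miR-96/miR-182 cluster on chromosome 6, known from sensory epithelia, was higher in Epi in all 3 members tested. miR-182-5p had 21817, 20677, 19879.9 and 22272 normalized CPM in Epi replicates 1 to 4 and 8133, 9675, 10569 and 10999 in Exe replicates 1 to 4 (log2 fold change -1.10, SE 0.19, adjusted p = 0.00142). The 4 samples of each tissue were close to each other and did not overlap. miR-183-5p (-1.11) and miR-96-5p (-1.03) differed by nearly the same amount, and the cluster held 4.16% ± 0.347 of the Epi counts and 1.87% ± 0.106 of the Exe counts. All 3 were called in every one of the other settings.

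Further miRNAs that were higher in Epi come from smaller units. miR-27b-3p had 11006, 10702, 15025 and 14394 normalized CPM in Epi replicates 1 to 4 and 2534, 1370.4, 1918 and 2778 in Exe replicates 1 to 4 (log2 fold change -2.57, SE 0.27, adjusted p = 5.02e-05). Its cluster mate miR-23b-3p changed in the same direction (-2.85), as did miR-23b-5p (-2.70), though the call of miR-23b-5p was made in only 11 of 20 other settings and lost without any 1 Epi replicate. miR-24-2-5p, from the paralogous cluster on chromosome 8, passed in the other direction (log2 fold change 1.99, SE 0.68, adjusted p = 0.0446), but in only 1 of 19 other settings: its call was lost with every other scaling of edgeR and without any 1 sample. miR-335-5p, from an intron of the imprinted gene *Mest*, had 6509, 5141, 5566 and 5039.7 normalized CPM in Epi replicates 1 to 4 and 1298, 979.8, 1715 and 1022 in Exe replicates 1 to 4 (log2 fold change -2.15, SE 0.26, adjusted p = 1.15e-04), and its other arm miR-335-3p a log2 fold change of -1.17. The epithelial miR-205-5p was higher in Epi as well, with 858, 898, 701 and 604 normalized CPM in Epi replicates 1 to 4 and 156, 82.2, 218 and 105 in Exe replicates 1 to 4 (log2 fold change -2.44, SE 0.44, adjusted p = 0.00183). In the miR-181 family 2 of 3 tested members were called higher in Epi, miR-181d-5p (-1.83) and miR-181a-5p (-2.71), the second in only 8 of 15 other settings and not without Exe replicate 3, Exe replicate 4 or Epi replicate 1. Among miRNAs near the floor, miR-374c-5p had 44.5, 72.0, 179 and 144.7 normalized CPM in Epi replicates 1 to 4 and 0, 0, 24.7 and 0 in Exe replicates 1 to 4 (log2 fold change -3.72, SE 1.06, adjusted p = 0.0225). Its Exe level rests on replicate 3 alone, so this fold change is no firm size.

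For 2 miRNAs called higher in Epi no count was found in Exe, and their fitted fold changes are not sizes. miR-29a-3p was at 116, 60.6, 58.2 and 77.6 normalized CPM in Epi replicates 1 to 4 and at 0 in all 4 Exe samples. Against 3 counts over the 4 Exe samples together, or 5.40 normalized CPM, it was at least 14.5-fold lower in Exe. In the same way miR-31-5p (58.1, 45.5, 89.4 and 71.3 in Epi) was at least 12.2-fold lower. Both lie near the floor of single Exe samples, where the depth limits what can be seen.

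**Figure D2:**
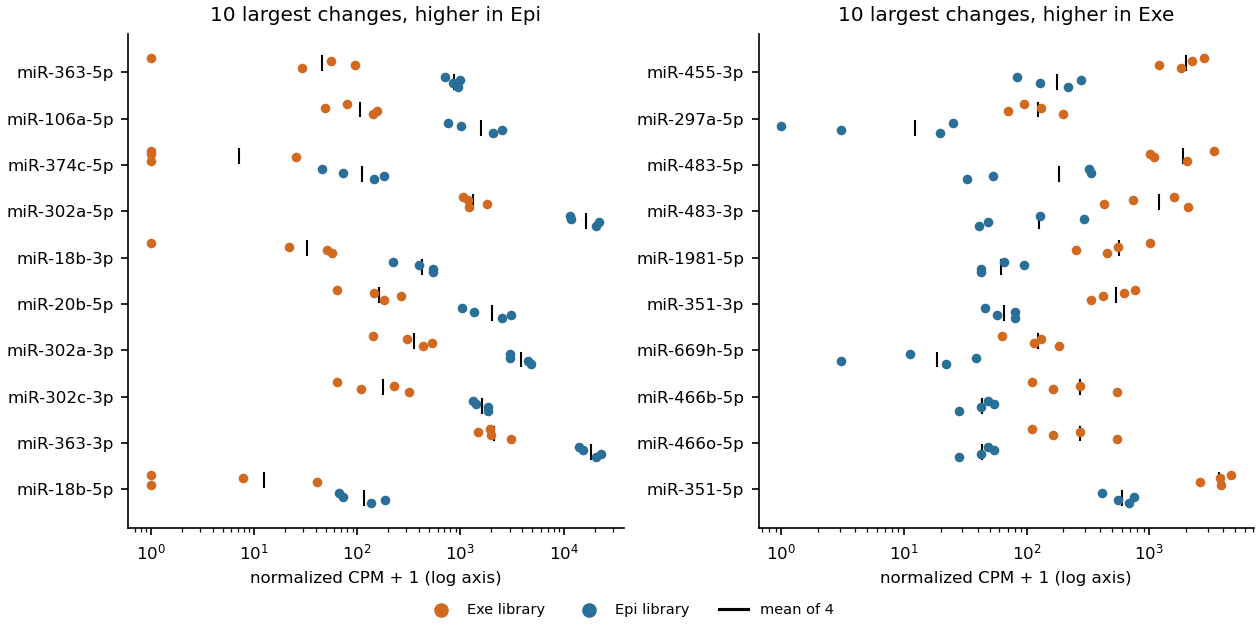
The 10 miRNAs per direction with the largest log2 fold change among those called, with no overlap of the samples and a mean of at least 100 normalized CPM in the higher tissue. The x axis is normalized CPM plus 1 on a log scale, each point is 1 sample (Exe orange, Epi blue), and the black bar is the mean of 4. The Epi samples of miR-302a-5p lie between 11601 and 21839 and its Exe samples between 1048 and 1819, and points at 1 on the axis are samples with a count of 0.

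In Exe the largest group was that of the *Sfmbt2* gene body on chromosome 2 (chr2:10370440-10595253), a rodent array of repeated hairpins of the miR-297, miR-466, miR-467 and miR-669 families. Of its 68 mature miRNAs 36 were tested, 25 were called higher in Exe and 0 higher in Epi, and all 36 had a log2 fold change above 0 (0.97 to 3.39, median 1.85). They held 17.0% ± 4.30 of the Exe counts and 4.72% ± 3.28 of the Epi counts. By sample this was 16.2, 17.8, 22.2 and 11.8% in Exe replicates 1 to 4 and 5.87, 8.84, 2.30 and 1.88% in Epi replicates 1 to 4. The tissues did not overlap, and Epi replicates 1 and 2 were well above replicates 3 and 4. Because of entries with shared counts these percentages are inflated, and with 1 entry per profile the difference between the tissues was 7.56 percentage points in place of 12.3. The 25 calls also hold entries with shared counts, so they are fewer separate measurements. The number of calls followed the Epi samples, with 24 of 48 tested without Epi replicates 1 and 2, and 8 of 48 without replicates 3 and 4. Leaving out Epi replicate 1, 3 or 4 alone left 16, 14 and 15 calls.

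Single members differed in how far the tissues lay apart. miR-466a-3p and miR-466e-3p, with identical counts and the tenth highest mean level in Exe, had 22099, 16903, 27939.8 and 13616 normalized CPM in Exe replicates 1 to 4 and 7869.9, 12599.9, 2487 and 2105 in Epi replicates 1 to 4 (log2 fold change 1.69, SE 0.51, adjusted p = 0.0286). The lowest Exe sample was only just above the highest Epi sample. The call on miR-466a-3p was made in 15 of 21 other settings. miR-467a-5p, identical in counts to miR-467b-5p, was further apart, at 9243, 9318, 11607 and 8872 normalized CPM in Exe replicates 1 to 4 and 2363, 4315, 1121 and 941 in Epi replicates 1 to 4 (log2 fold change 2.16, SE 0.43, adjusted p = 0.00375). The largest fold changes were those of low members, miR-297a-5p with 93.8, 130.2, 69.2 and 195.9 normalized CPM in Exe replicates 1 to 4 and 23.9, 0, 2.08 and 18.9 in Epi replicates 1 to 4 (log2 fold change 3.39, SE 0.94, adjusted p = 0.0205), miR-669h-5p (log2 fold change 2.81, SE 0.82, adjusted p = 0.0255) and miR-466b-5p, which is identical in counts to miR-466o-5p (log2 fold change 2.69, SE 0.63, adjusted p = 0.00890). Of these, miR-297a-5p and miR-466b-5p lost their call without either pair of Epi replicates, and miR-669h-5p was called in 12 of the 20 other settings that tested it. Those called in all other settings that tested them were miR-466n-3p, miR-467a-5p, miR-467b-5p, miR-467c-5p, miR-467d-5p, miR-669a-5p, miR-669c-5p and miR-669p-5p. Among these, miR-669a-5p and miR-669p-5p share all their counts, as do miR-467a-5p and miR-467b-5p.

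The X-linked miR-322/miR-503 cluster, known for slowing the cell cycle, held miRNAs that differed in opposite directions. miR-351-5p had 4661, 3803, 2600.2 and 3862 normalized CPM in Exe replicates 1 to 4 and 410.4, 750.1, 553 and 688 in Epi replicates 1 to 4 (log2 fold change 2.63, SE 0.30, adjusted p = 7.40e-05). Every Exe sample was above every Epi sample, and Epi replicates 1 and 2 did not both lie above 3 and 4 here. miR-351-3p (3.02) and miR-322-3p (2.56) were called in the same direction in all 21 other settings. miR-450a-5p, encoded a few kilobases away on the same strand, was instead higher in Epi, with 739, 746, 1281 and 1157 normalized CPM in Epi replicates 1 to 4 and 172, 295, 366 and 581 in Exe replicates 1 to 4 (log2 fold change -1.46, SE 0.42, adjusted p = 0.0247). The cluster as a whole took 0.593% ± 0.0964 of the Exe counts and 0.249% ± 0.0593 of the Epi counts. miR-125a-5p, which has the seed of miR-351-5p, was more abundant and did not pass (log2 fold change 0.05, SE 0.39, adjusted p = 0.933).

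Several single hairpins were higher in Exe. The largest change was that of miR-455-3p, encoded in the collagen gene *Col27a1*, with 2799.5, 2220.0, 1206 and 1805 normalized CPM in Exe replicates 1 to 4 and 82.1, 277, 129 and 216 in Epi replicates 1 to 4 (log2 fold change 3.51, SE 0.45, adjusted p = 1.92e-04). The lowest Exe sample was far above the highest Epi sample. Both arms of miR-483, from an intron of *Igf2*, were called: miR-483-5p had 3394, 1021, 1102 and 2015 normalized CPM in Exe replicates 1 to 4 and 321, 333, 52.0 and 31.4 in Epi replicates 1 to 4 (log2 fold change 3.36, SE 0.75, adjusted p = 0.00705) and miR-483-3p a log2 fold change of 3.26. For both, Epi replicates 1 and 2 were above replicates 3 and 4. miR-1981-5p (3.21), miR-378a-3p (2.09) and miR-22-3p (1.62) were called in all 21 other settings, the last with 6115, 6694, 5304 and 5374 normalized CPM in Exe replicates 1 to 4 and 2073, 2436, 1647 and 1463 in Epi replicates 1 to 4. miR-5099, the third most abundant entry in Exe, spanned 20490.2 to 87974 normalized CPM in Exe and overlapped with Epi (log2 fold change 1.37, SE 0.42, adjusted p = 0.0311). It was called in 14 of 21 other settings.

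**Figure D3:**
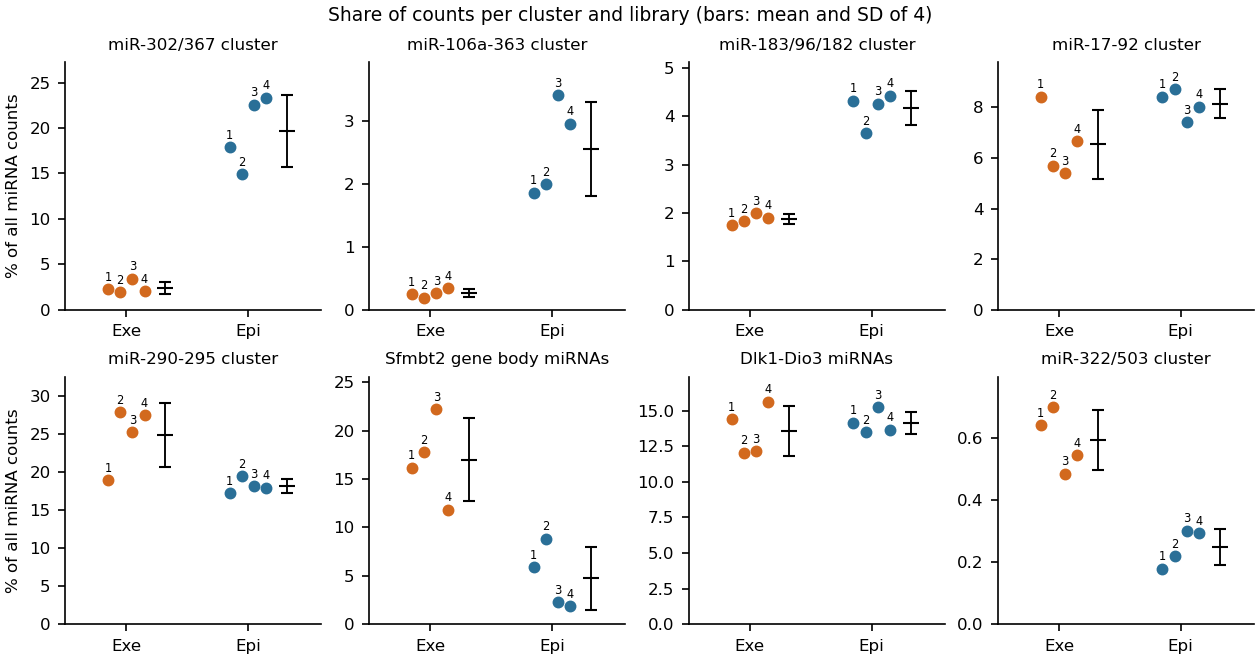
Percent of all miRNA counts of a sample on the members of 8 clusters, with the replicate number at each point (Exe orange, Epi blue) and the mean and SD of 4 samples as black bars. Each panel has its own y axis from 0. The tissues do not overlap for miR-302/miR-367, miR-106a-363, miR-183/miR-96/miR-182, *Sfmbt2* and miR-322/miR-503, and they overlap for miR-17-92, miR-290-295 and *Dlk1-Dio3*.

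The miR-290-295 cluster was the most abundant in Exe, and its tissues overlapped. It held 24.8% ± 4.14 of the Exe counts and 18.2% ± 0.933 of the Epi counts, and the lowest Exe sample (18.9%) lay within the Epi range of 17.2% to 19.5%. Of 17 members tested 2 were called, both higher in Exe, and the median log2 fold change was 0.45. With 1 sample left out this median lay between -0.026 and 0.34, and it was below 0 without Exe replicate 2. miR-291a-5p had 37504, 45969, 41949 and 53352 normalized CPM in Exe replicates 1 to 4 and 25826, 30011, 20231 and 22823 in Epi replicates 1 to 4 (log2 fold change 0.85, SE 0.20, adjusted p = 0.00890). It was called in 18 of 21 other settings and not without either pair of Epi replicates or without Epi replicate 3. The most abundant miRNA in Exe, miR-295-3p, had 64467, 87532, 79879 and 96230.1 normalized CPM in Exe replicates 1 to 4 and 55133, 62416, 51368 and 51452 in Epi replicates 1 to 4 (log2 fold change 0.57, SE 0.18, adjusted p = 0.0345). Its call was kept in only 2 of 21 other settings and is lost with RLE scaling or DESeq2, so the call, though not the sign, depends on the setting. miR-293-3p, the fourth most abundant in each tissue, was not called (log2 fold change 0.54, SE 0.23, adjusted p = 0.0969).

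Because miR-295-3p and miR-302b-3p share the seed AAGUGCU, the sum over the seed was compared as well. The seed held 22.2% ± 2.81 of the Epi counts and 10.4% ± 1.31 of the Exe counts. In Epi, miR-302b-3p gave 15.9% ± 2.84 of all counts and miR-295-3p 5.59% ± 0.214, and in Exe 2.06% ± 0.598 and 8.06% ± 1.29. The miRNA that leads the seed thus differed between the tissues. In an exact permutation test over the 8 samples the seed gave a two-sided p of 0.0286, the smallest that 4 against 4 samples allow. Of the 10 seeds with the largest mean share, 5 reached this p (those of miR-302b-3p, miR-363-3p, miR-291a-5p, miR-30c-5p and miR-182-5p), and adjusted over the 10 it became 0.0571, so none passed. The seed AUCAAAG of miR-291a-5p took more of the Exe counts (4.93% ± 0.569 against 2.85% ± 0.440), and GUAAACA of miR-30c-5p (2.15% ± 0.300 against 2.98% ± 0.117) and UUGGCAA of miR-182-5p took less. Over the shares of all 27 lists, the smallest adjusted p was likewise 0.0551. RefSeq gave a sequence for entries with 70.4% to 77.5% of the counts in Exe and 84.9% to 93.4% in Epi, most *Sfmbt2* entries being without one, so the sums over seeds are incomplete.

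The *Dlk1-Dio3* miRNAs on chromosome 12, an imprinted array expressed from the maternal allele, were abundant in both tissues, whose samples overlapped. They held 13.6% ± 1.75 of the Exe counts and 14.1% ± 0.784 of the Epi counts, and of 73 tested 4 were called, all higher in Epi (miR-323-3p, miR-494-3p, miR-758-3p and miR-1193-3p), with a list median of -0.40. Of those called, miR-323-3p had 3174, 3788, 4138 and 4015 normalized CPM in Epi replicates 1 to 4 and 1642, 788, 1883 and 805 in Exe replicates 1 to 4 (log2 fold change -1.56, SE 0.33, adjusted p = 0.00514). The most abundant, miR-127-3p, had a log2 fold change of 0.59 (adjusted p = 0.0927), and miR-409-3p of -0.19 (adjusted p = 0.574). With other scalings the number called higher in Epi was 8 to 10, with DESeq2 12, and without Exe replicate 1 it was 16, while 0 were called higher in Exe in each of these.

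Other families that early embryos share gave few or no calls. Of the 8 tested members of the miR-200/miR-141/miR-429 family, known for keeping epithelial cells epithelial, 0 were called by edgeR, 0 had an unadjusted p under 0.05 and 0 were called by DESeq2, and the log2 fold changes of its most abundant members were -0.15 (miR-200c-3p, SE 0.25) and -0.03 (miR-200b-3p, SE 0.26). None of the 3 tested of miR-15/miR-16/miR-195, the 4 of miR-99/miR-100 and miR-125 and the 6 of miR-130/miR-301 were called, with list medians of -0.06, -0.13 and -0.41. These medians were not stable: with 1 sample left out they ranged from -1.36 to -0.19, from -0.50 to 0.65 and from -1.64 to -0.43, with the extremes without Exe replicate 3 (-1.36), Exe replicate 4 (0.65) and Exe replicate 1 (-1.64). At an unadjusted p under 0.05 there were 0, 1 and 2 of them, and DESeq2 called 0, 1 and 2, each higher in Epi. In the miR-30 family 1 of 10 was called, miR-30c-5p with 16037, 15123, 13540.2 and 14901 normalized CPM in Epi replicates 1 to 4 and 8164, 8572, 9293 and 9852 in Exe replicates 1 to 4 (log2 fold change -0.73, SE 0.18, adjusted p = 0.0128). All 7 tested members of let-7, a family that rises with differentiation, had a log2 fold change above 0 (median 0.88), and 1 was called: let-7a-5p had 2221, 377, 361 and 399 normalized CPM in Exe replicates 1 to 4 and 267, 189, 129 and 176 in Epi replicates 1 to 4 (log2 fold change 2.12, SE 0.64, adjusted p = 0.0286). Exe replicate 1, the shallowest sample, set this mean: the family took 0.614% of its counts and 0.150% to 0.171% of those of the other Exe samples. Without this sample the log2 fold change was 0.78 (edgeR adjusted p = 0.112), and the call was also lost without any 1 of the 4 Epi replicates. The let-7 median ranged from 0.27 to 1.19 with 1 sample left out. The log2 fold change of let-7f-5p then ranged from -0.23 to 1.26, so its sign was not stable. miR-148a-3p, which can target *Dnmt* messages, was not called (log2 fold change 0.52, SE 0.21, adjusted p = 0.0797), and of the miR-34/miR-449 family, known as a p53 target, 0 members passed the filter on low counts.

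**Figure D4:**
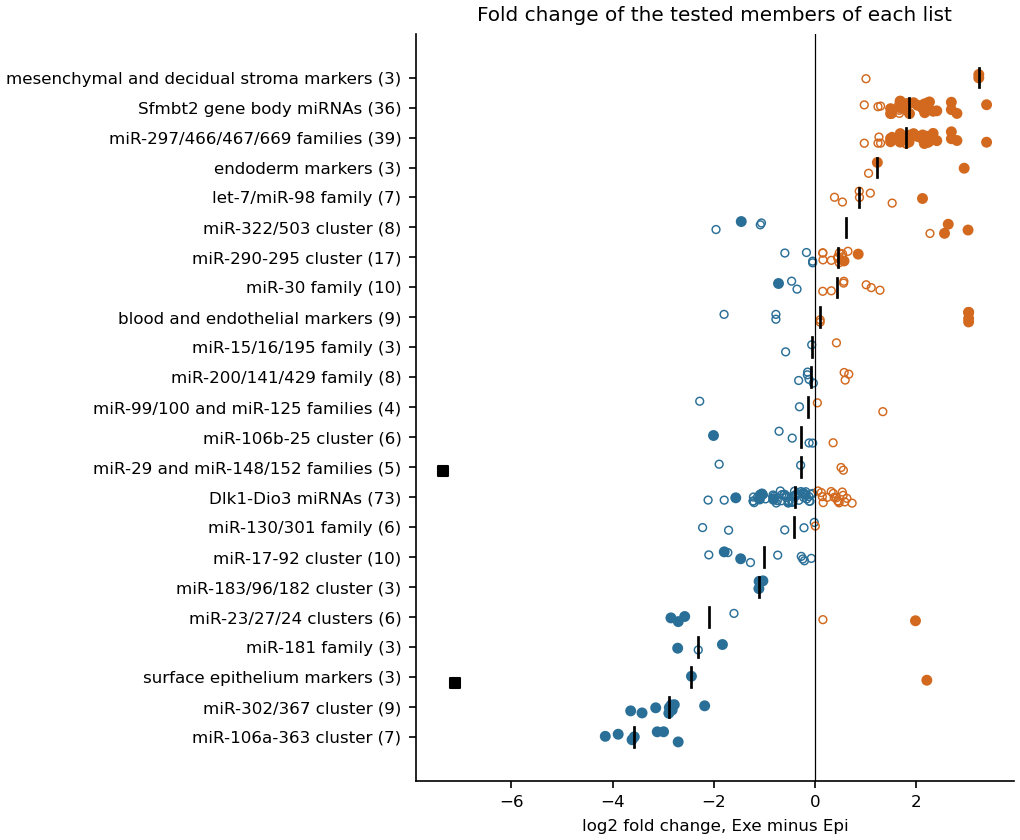
Log2 fold change, Exe minus Epi, of each tested member of the 23 lists with at least 3 tested members (number tested in brackets), ordered by the list median (black bar). Filled points were called, open points were not, and black squares are the 2 miRNAs with 0 counts in Exe. The medians run from -3.57 for miR-106a-363 to 3.24 for the mesenchymal markers, of which the 2 called entries share their counts.

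miRNAs that mark other cells were low in all samples. Counts given for them are raw, and every Exe sample had a smaller total than every Epi sample. An equal or higher count in Exe is therefore a larger share there. Of 17 blood and endothelial markers 9 were tested and 4 called, which are the 4 entries of miR-486, with 1 set of counts (Exe 3, 30, 16 and 64, Epi 0, 13, 9 and 13), and the list summed to 0.106% to 0.214% of the counts in Exe and 0.101% to 0.112% in Epi. Of the 17, 15 had a count in at least 1 sample, whereas miR-223-3p and miR-144-5p were at 0 in all 8 samples. miR-451a had 40 counts in all of Exe and 23 in all of Epi. Mesenchymal and decidual markers summed to 0.0223% to 0.123% in Exe and 0.00908% to 0.0181% in Epi, with 3 of 9 tested and the 2 entries of miR-199-3p called (73 counts in Exe and 29 in Epi), and miR-214-3p had 1 count in all. Endoderm markers took 0.192% to 0.483% in Exe and 0.0745% to 0.177% in Epi. Of them miR-192-5p, with 2471, 3522, 2571 and 1630.3 normalized CPM in Exe replicates 1 to 4 and 1060.3, 1493, 1196 and 593 in Epi replicates 1 to 4 (log2 fold change 1.23, SE 0.34, adjusted p = 0.0205), and miR-375-3p (log2 fold change 2.95, SE 0.93, adjusted p = 0.0336) were called. miR-122-5p had 11 counts in Exe and 10 in Epi. The calls in these 3 lists were lost without Epi replicates 1 and 2 and also without replicates 3 and 4. That of miR-375-3p was made in 10 of 20 other settings and lost without Exe replicate 2, 3 or 4 or any 1 Epi replicate. Neural (7 in the table) and muscle markers (9) had no member that passed the filter. Of the 10 Hox cluster miRNAs 1 was tested, miR-10b-5p, and not called (log2 fold change 0.52, SE 0.66, adjusted p = 0.607). Surface epithelium had 1 call higher in Exe, miR-203-3p (log2 fold change 2.21, SE 0.70, adjusted p = 0.0336), beside miR-205-5p and miR-31-5p in the other direction. The call of miR-203-3p was made in 10 of 20 other settings and lost without Exe replicate 1, Exe replicate 3 or any 1 Epi replicate. Their part in the tissue differences was not tested.

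A difference in the use of the arms of a hairpin was not detected with these samples. Over 105 hairpins with both arms measured, 0 (0.0%) were called for a different ratio of the 5p to the 3p arm with diffSpliceDGE of edgeR, 9 had an unadjusted p under 0.05, and limma called 0 with 10 such. The smallest p were those of miR-293 (log2 of 5p over 3p -5.44 ± 0.82 in Exe and -4.29 ± 0.52 in Epi), miR-93, miR-92b, miR-130b and miR-125a (adjusted p = 0.461 to 0.468). miR-93, whose 5p arm carries the seed AAAGUGC, had -1.30 ± 1.24 in Exe and 1.58 ± 0.87 in Epi. Without Exe replicate 1, 3 or 4, 1 hairpin was called each.

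At an equal total of counts, Epi samples held more different miRNAs with at least 1 count. After thinning to 65751 counts, 436 ± 76.1 miRNAs had at least 1 count in Exe and 532 ± 16.4 in Epi (exact two-sided permutation test, p = 0.0286, the smallest possible), and unthinned 464 and 674. With at least 3 counts after thinning the values were 359.9 ± 42.7 and 374 ± 7.13 (exact permutation p = 0.743), so the difference lies in miRNAs with 1 or 2 counts. The 10 most abundant miRNAs took 41.6% ± 3.34 of the Exe counts and 46.1% ± 1.71 of the Epi counts (exact permutation p = 0.0571). Beside those described, they included miR-191-5p (log2 fold change 0.25) and miR-26a-5p (0.27), which were not called.

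The same tissue difference was taken from the separate control embryos at E7.5, whose samples had 499399 to 2325698 counts. In a fit of its own, 215 of 632 miRNAs (34.0%) were called at E7.5. Of the 65 called higher in Exe at E6.5, 58 had the same sign and 54 were called in the same direction at E7.5 (20.9% of all 632 were called this way), and of the 44 higher in Epi 41 and 31 (13.1%), with 1 of each called in the opposite direction. All 9 miR-302/miR-367 members tested at E7.5 were called higher in Epi, as were 6 of 7 of miR-106a-363, and 50 of 56 *Sfmbt2* miRNAs were called higher in Exe. The *Sfmbt2* share at E7.5 was 14.2% ± 1.46 in Exe (n = 4) and 0.694% ± 0.0690 in Epi (n = 3), so that the Epi share lay below all E6.5 Epi samples.

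Whether the tissue difference itself differed between the stages was tested as an interaction, (Exe minus Epi at E6.5) minus (Exe minus Epi at E7.5), in 1 fit of the 15 control samples. Of 558 miRNAs 75 (13.4%) were called, 12 with a positive and 63 with a negative value. Most negative ones belonged to 2 groups. In miR-290-295, 15 of 18 were called, with a median tissue difference of 0.27 at E6.5 and 1.56 at E7.5, and the cluster's share was 18.2% ± 0.933 in Epi at E6.5 and 4.92% ± 0.0550 at E7.5, beside 15.2% ± 1.85 in Exe at E7.5. For miR-295-3p the normalized CPM at E7.5 were 41429.8, 49817, 37113 and 45692 in Exe and 14699, 14095 and 14599 in Epi (interaction -1.14, SE 0.19, adjusted p = 0.00189). miR-291a-5p had a negative value too (interaction -0.99, SE 0.20, adjusted p = 0.00660). In *Sfmbt2*, 28 of 58 were called, with medians of 2.07 and 4.36, but these calls rest on Epi replicates 1 and 2 at E6.5: without them 2 of 61 were called, and 17 miRNAs in all (49 without Epi replicates 3 and 4). In miR-290-295, 5 of 18 were called without E6.5 Epi replicates 1 and 2. Leaving out E7.5 Exe replicate 1 or 4, or E7.5 Epi replicate 2 or 3, left 39, 49, 38 and 30 calls in all. miR-669h-5p (interaction -6.85, SE 1.22, adjusted p = 0.00306) was at 0 in all 3 Epi samples at E7.5, so its value is no size.

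A few single miRNAs had tissue differences of opposite sign at the 2 stages, 9 among those called both at E6.5 and in the interaction. In the E7.5 fit of its own, only 1 of the 65 higher in Exe and 1 of the 44 higher in Epi were called in the opposite direction. miR-375-3p, known from endoderm and pancreatic islets, was higher in Exe at E6.5 (0 to 329 normalized CPM against 15.2 to 44.5 in Epi, Exe replicate 1 being the sample at 0), and at E7.5, scaled jointly, it had 194.4, 325, 846 and 229 in Exe and 2819, 3293 and 3811 in Epi (interaction 5.94, SE 0.90, adjusted p = 9.96e-04). All 3 Epi samples at E7.5 were above every other sample, while the call at E6.5 was made in 10 of 20 other settings. miR-335-5p was higher in Epi at E6.5 and at E7.5 had 11680.4, 4861, 6666 and 7983 in Exe and 7242, 5634 and 4657 in Epi (interaction -2.68, SE 0.39, adjusted p = 9.96e-04), and miR-335-3p did likewise (interaction -2.03, SE 0.38, adjusted p = 0.00344). Their Exe samples at E6.5 were lower than all others. miR-203-3p, identical in counts to miR-203b-5p, had opposite signs as well (interaction 3.99, SE 1.08, adjusted p = 0.0192), though the interaction call was lost without either pair of E6.5 Epi replicates. For miR-455-3p the difference was smaller at E7.5, with 651, 1226, 779.5 and 719.8 in Exe and 301.2, 339 and 369.5 in Epi (interaction 2.07, SE 0.51, adjusted p = 0.0132), and for miR-92b-3p it was larger toward Epi (interaction 1.48, SE 0.39, adjusted p = 0.0173).

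**Figure D5:**
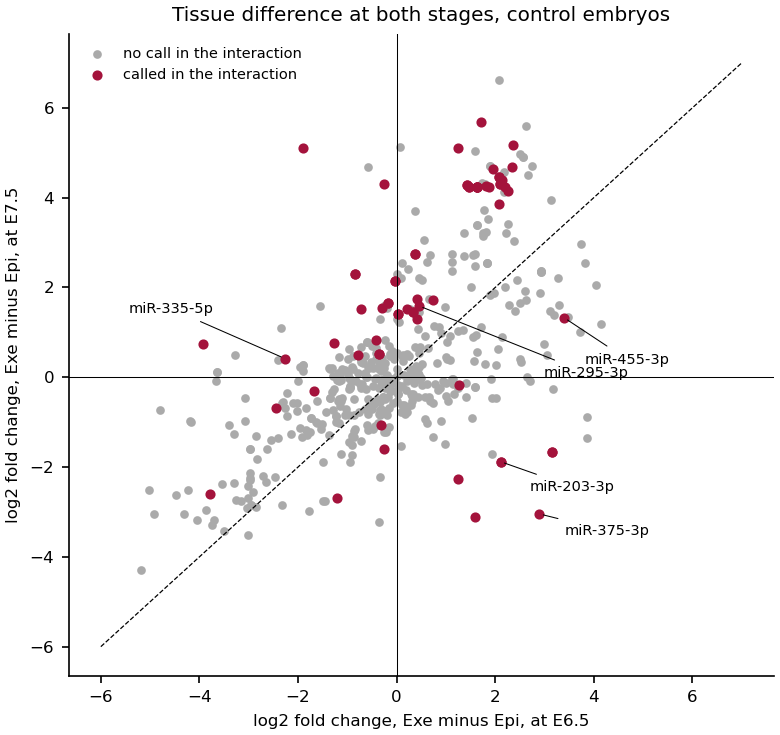
Log2 fold change, Exe minus Epi, at E6.5 (x axis) and E7.5 (y axis) from 1 fit of 15 control samples, for the 496 miRNAs tested that were counted in each of the 4 groups. Red points were called in the interaction of tissue and stage, and the dashed line marks equal values. miR-375-3p (2.89 and -3.04) lies in the lower right and miR-335-5p (-2.26 and 0.42) in the upper left, while most called points lie above the line on the right.

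The tissue difference was also fitted in the E6.5 mutants, again in separate samples. In *Dnmt1*-KO 118 of 397 miRNAs (29.7%) were called, in *Dnmt3a/3b*-DKO 101 of 347 (29.1%) and in *Dnmt*-null 69 of 297 (23.2%). Of the 65 called higher in Exe in controls, 49 of the 62 tested were called the same way in *Dnmt1*-KO, 34 of 60 in *Dnmt3a/3b*-DKO and 26 of 58 in *Dnmt*-null, and of the 44 higher in Epi 34 of 43, 31 of 39 and 22 of 34. Not all kept their sign. Of those higher in Exe, 62 of 62 in *Dnmt1*-KO, 51 of 60 in *Dnmt3a/3b*-DKO and 46 of 58 in *Dnmt*-null did. Of those higher in Epi, 41 of 43, 39 of 39 and 34 of 34 did. Among all miRNAs tested in each mutant, 16.6%, 14.1% and 12.1% were called higher in Exe. Those called higher in Epi were 13.1%, 14.99% and 11.1%. In each mutant 0 of the control calls were called in the opposite direction by edgeR. The shallower *Dnmt*-null samples (45242 to 132931 counts) had the fewest calls. The miR-302/miR-367 share was 17.2% ± 1.52, 14.5% ± 2.68 and 9.19% ± 2.89 in Epi of the 3 mutants in this order, beside 2.43%, 2.50% and 2.11% in Exe. The *Sfmbt2* share was 18.6%, 17.9% and 18.1% in Exe and 1.65%, 2.31% and 3.06% in Epi. Differences between genotypes were not tested here.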

How the data were processed

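Small RNA was analysed from the deposited table of raw read counts per mature miRNA (88 columns), which holds no normalization. The methods name fastp 0.20.1 for trimming and Bowtie 1.2.1.1 for alignment to GRCm38, after which the authors counted reads on mature miRNAs of miRBase and tolerated differences at the 3′ end. Whether strand was used is not given in the sources used here, so antisense entries cannot be told apart, and entries with shared sequence hold the same reads. Groups were taken from the sample titles. edgeR 4.0.16 in R 4.3.3 was used on the 4 Exe and 4 Epi E6.5 control samples (filterByExpr with a minimum count of 10, TMM, quasi-likelihood test, Benjamini-Hochberg adjustment, adjusted p under 0.05 and log2 fold change beyond 0.5). SE is the log2 fold change over the root of F. Arm ratios used a pseudocount of 0.5 and a mean of at least 10 counts per arm. Shares and detection were compared by exact permutation of samples (SciPy 1.17.1). DESeq2 1.42.0, limma 3.58.1, other scalings and filters, thinning, a replicate block and samples left out were alternatives, of which the removal of Epi pairs and 1 entry per profile were added after the data were seen. The steps were tested on simulated data. miRNAs named are the 10 called with the largest fold change per direction (samples apart, a mean of at least 100 normalized CPM in the higher tissue), the 10 most abundant per tissue, the leading members and calls of each list, the 5 hairpins with the smallest adjusted p for arm usage, and 5 per direction of the stage interaction. Any other miRNA was picked with its values in view. The members and lists were chosen with earlier results of these data known. Sequences and gene positions are from RefSeq (1275 and 1446 of 1504 miRNAs matched), and miRNAs without an entry are named only.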

Additional observations from a re-analysis of the deposited data

Results flagged for a closer look

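A sample stood apart from the other 3 of its group in 3 of the 144 sets of 4 values looked at, where chance gives about 1 in 20. miR-374c-5p had a log2 value (normalized CPM plus 1) of 4.68 in Exe replicate 3 and 0 in the other Exe samples. The let-7/miR-98 family took 0.614% of the counts of Exe replicate 1, the shallowest sample, and at most 0.171% of the other Exe samples. The Hox cluster miRNAs took 0.00610% of the counts of Epi replicate 4, against 0.00873% in the next Epi sample.

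The tissue difference (log2, Exe minus Epi) at E6.5 differed from that at E7.5, by the interaction in edgeR, for 10 of the miRNAs named. The E6.5 value minus the E7.5 value was 5.94 for miR-375-3p (2.89 and -3.04), 2.07 for miR-455-3p (3.40 and 1.33), 1.48 for miR-92b-3p (-1.22 and -2.70), 3.99 for miR-203-3p and also 3.99 for miR-203b-5p, which share their counts. It was -2.68 for miR-335-5p, -2.03 for miR-335-3p, -1.14 for miR-295-3p, -0.99 for miR-291a-5p and -6.85 for miR-669h-5p, the last with 0 counts in the E7.5 Epi samples. The 2 stages came from separate embryos, and the E7.5 control samples were deeper than every E6.5 control sample. Whether the depth has a part in these values was not tested.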

How the results depend on the processing

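The miRNAs called, 29.9% of those tested, became 15.5% without a filter on low counts and 10.6% without Epi replicates 3 and 4, with 18 higher in Exe and 24 higher in Epi. The number higher in Epi (44) became 68 with DESeq2 and 85 with the 15 control samples in the fit. Leaving out 1 sample at a time gave 15.8% to 31.8% called, 25 to 66 higher in Exe, 34 to 80 higher in Epi, 0 to 1 hairpins with a different arm ratio and 30 to 84 calls in the stage interaction (75), which became 17 without Epi replicates 1 and 2 and 49 without replicates 3 and 4. The difference in miRNAs detected was -14.5 at a minimum of 3 counts. With 1 entry per profile the share difference of miR-297/miR-466/miR-467/miR-669 was 9.24 percentage points, that of blood markers 0.00539 and that of *Sfmbt2* 7.56. Beyond the spread between samples, medians of lists moved as follows. The median of miR-302/miR-367 (-2.88) was -3.42 without Epi replicates 1 and 2. The median of miR-106b-25 (-0.28) was -0.50 with TMM factors without miR-290-295 and miR-302/miR-367, -0.55 with TMM factors without *Dlk1-Dio3*, -0.67 without Epi replicates 1 and 2. The median of miR-297/miR-466/miR-467/miR-669 (1.81) was 2.86 without Epi replicates 1 and 2. The median of miR-322/miR-503 (0.61) was -0.61 without the filter on low counts, 2.52 after thinning, 1.96 without Epi replicates 3 and 4. The median of miR-15/miR-16/miR-195 (-0.064) was -1.03 without the filter on low counts, -1.68 with the 15 control samples. The median of miR-183/miR-96/miR-182 (-1.10) was -1.24 with DESeq2, -1.24 with RLE scaling, -1.29 with TMM factors without miR-290-295 and miR-302/miR-367, -1.36 with TMM factors without *Dlk1-Dio3*, -1.37 without the filter on low counts, -1.22 with a mean of at least 10 counts, -1.38 with the 15 control samples, -1.41 without Epi replicates 1 and 2, -1.23 without Epi replicates 3 and 4. The median of miR-23/miR-27/miR-24 (-2.09) was -2.72 with a mean of at least 10 counts, -2.61 after thinning, -2.84 without Epi replicates 1 and 2. The median of miR-29 and miR-148/miR-152 (-0.28) was 0.48 after thinning, 0.061 without Epi replicates 3 and 4. The median of miR-130/miR-301 (-0.41) was -1.31 without the filter on low counts. The median of mesenchymal (3.24) was 1.03 with 1 entry per profile. The median of surface epithelium (-2.44) was -2.83 with all E6.5 samples in the fit, -2.92 with the 15 control samples, -0.072 with 1 entry per profile, -0.43 without Epi replicates 3 and 4. The median of *Dlk1-Dio3* (-0.40) was -0.67 with TMM factors without *Dlk1-Dio3*, -0.67 without the filter on low counts, -0.76 without Epi replicates 1 and 2. The median of *Sfmbt2* (1.85) was 2.86 without Epi replicates 1 and 2. With 1 sample left out, medians of lists that moved ranged over -0.026 to 0.34 (miR-290-295), -3.28 to -2.89 (miR-302/miR-367), -0.58 to -0.36 (miR-106b-25), 0.062 to 2.12 (miR-322/miR-503), -1.36 to -0.19 (miR-15/miR-16/miR-195), -1.38 to -1.21 (miR-183/miR-96/miR-182), -0.67 to -0.29 (miR-29 and miR-148/miR-152), -0.50 to 0.65 (miR-99/miR-100 and miR-125), -1.64 to -0.43 (miR-130/miR-301), -3.02 to -0.28 (surface epithelium), -0.68 to -0.42 (*Dlk1-Dio3*). Same-numbered samples deviated together with r of 0.119, -0.036, 0.171 and 0.184, 3 of the 4 above 0.1 and above every other pair of an Exe and an Epi sample (at most 0.098). Since not every pair was above 0.1, the numbers were not taken to pair them. With a replicate block 104 miRNAs were called (60 and 44), among them 96 of the 109. The calls of miR-367-3p, miR-203-3p, miR-203b-5p, miR-24-2-5p, miR-181a-5p, miR-23b-5p, miR-295-3p and miR-375-3p were not made with the block. Nor were those of miR-199a-3p, miR-199b-3p, miR-3074-2-3p, miR-5108 and miR-532-3p. Exe replicate 2 correlated best with Epi replicate 3. No alternatives were run for the separate E7.5 and mutant fits.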

Other observations

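A block of miRNAs on the X chromosome that runs from miR-743a-3p to miR-465a-5p, whose members are known for their expression in testis, was outside the lists described above and was chosen after its values were seen. Of its 15 tested entries 7 were called higher in Exe, beside 17.8% of all miRNAs tested, and 0 higher in Epi by edgeR, and 14 had a log2 fold change above 0, with a median of 1.46. All 7 calls were lost without Epi replicate 3, without Epi replicate 4 and without both, and each of the 7 was also lost without at least 1 Exe replicate. Of the 15, 3 have identical counts, those of miR-465a-3p and its copies miR-465b-3p and miR-465c-3p. For miR-880-3p the log2 fold change was 1.90 (SE 0.51, edgeR adjusted p = 0.0183) and the samples of the tissues did not overlap, at 504 to 1110 normalized CPM in Exe and 62.9 to 280 in Epi. For miR-741-3p it was 1.46 (SE 0.43, edgeR adjusted p = 0.0270), with 769.7 to 2234 normalized CPM in Exe and 268 to 822 in Epi, so that the lowest Exe sample, replicate 4, lay within the Epi range.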
